A study of Mus musculus with 12 samples.

Results

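The transcriptome of wild-type hematopoietic stem cells (HSCs) was described from the 3 wild-type libraries of a series of 12, over the 18546 genes listed in the deposited table. The series holds HSCs of 4 genotypes. The 9 libraries that carry an Nras or a Tet2 allele entered only the table's own gene filter and the recovery of read counts and gene lengths. The 3 libraries came from bone marrow of C57BL/6 mice with a wild-type genotype, aged 10 to 12 weeks after birth, and no treatment is named for them. Cells were sorted as CD150+CD48-Lin-Sca1+cKit+, the combination known as SLAM HSCs, where Lin- stands for the absence of mature blood cell antigens. The labels do not list the antibodies behind Lin-, the number of cells sorted or the animals behind each replicate, so the spread given below is that between 3 samples and may be partly technical. Genes were ranked by the mean of log2 RPKM, the reads per kilobase of gene length scaled to library size, and that mean, turned back to RPKM, is called the level of a gene. Values written with ± are the arithmetic mean and its SD over 3 libraries.

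HSCs are the rare marrow cells from which all blood lineages are renewed. Most of them in an adult rest outside the cell cycle, held in place by contacts and factors of the marrow niche, such as the Kit ligand and the chemokine that binds Cxcr4. Their identity is maintained by a set of transcription factors that act together on shared enhancers, including Gata2, Runx1, Tal1, Lyl1, Lmo2, Erg and Fli1. They are also known to hold low amounts of transcripts of several lineages before commitment, megakaryocyte genes above all.

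Depth and completeness differed between the libraries. Reads in genes numbered 19205045, 25247216 and 34631653 in replicates 1, 2 and 3, and 3824, 1000 and 2062 genes had no read in them. Of the genes at 0 in replicate 1, 2009 were read in both other libraries, with 384 of them at 100 reads or more in both. The equivalent counts were 87 and 9 for replicate 2 and 443 and 38 for replicate 3. Replicate 1 thus stood apart by its missing genes, and results that rest on it are given with its own value. Between pairs of libraries, Pearson's r of log2 RPKM across all genes was 0.708 for replicates 1 and 2, 0.695 for 1 and 3 and 0.755 for 2 and 3. These values include genes at 0 reads in a library. Over the 14072 genes read in all 3 libraries, r was 0.819, 0.791 and 0.902 for the same pairs. Genes are not independent replicates in either. Read counts of any 2 libraries differed far beyond counting error, with a mean chi-square per gene of 58.0 to 113. Counting error alone gives 1. All 3 were counted as separate samples, though this excess does not by itself show separate animals, which the labels do not give.

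Transcripts tied to sex also separated replicate 1. Xist, the RNA that silences an X chromosome in females, was at 0.0937, 220 and 218 RPKM in replicates 1, 2 and 3. Ddx3y, a helicase gene of the Y chromosome, had 1647 reads in replicate 1 and none in the others. The Y genes Eif2s3y, Kdm5d and Uty were at 9.91, 2.94 and 1.92 RPKM in replicate 1 and at or under 0.015 RPKM in both others. Sex is not given in the labels. The Y-bearing library and the library with the most missing genes were the same, so those differences cannot be told apart.

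Between genes, the level depends on the gene length the authors divided by. For 70.3% of the 17264 genes matched to the GENCODE M21 annotation, that length was within 1% of the exon lengths summed over all transcripts, which counts shared exons repeatedly. The median protein-coding gene was given 1.61 times its union-exon length, the length of its exons with each base counted a single time. Deposited RPKM therefore runs low for genes given a length above their union-exon length, and high for those given a length below it. Actb, cytoplasmic actin, stood at 194 RPKM as deposited and at 572 per union-exon length, and Eef1a1, a translation elongation factor, at 252 and 769. Igf1r, the receptor of insulin-like growth factor, went the other way, from 76.5 to 20.4 RPKM. So did Snrnp70, which has 17 annotated transcripts, from 115 to 25.4, so the number of transcripts alone does not give the direction. The ranks under both lengths had a Spearman correlation of 0.937 across genes, and 77 of the 100 highest matched genes were shared. Deposited values are given unless stated otherwise, and an order between genes holds on that scale alone unless the union-exon values are given beside it. Values of a gene between libraries do not depend on its length.

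**Figure D1:**
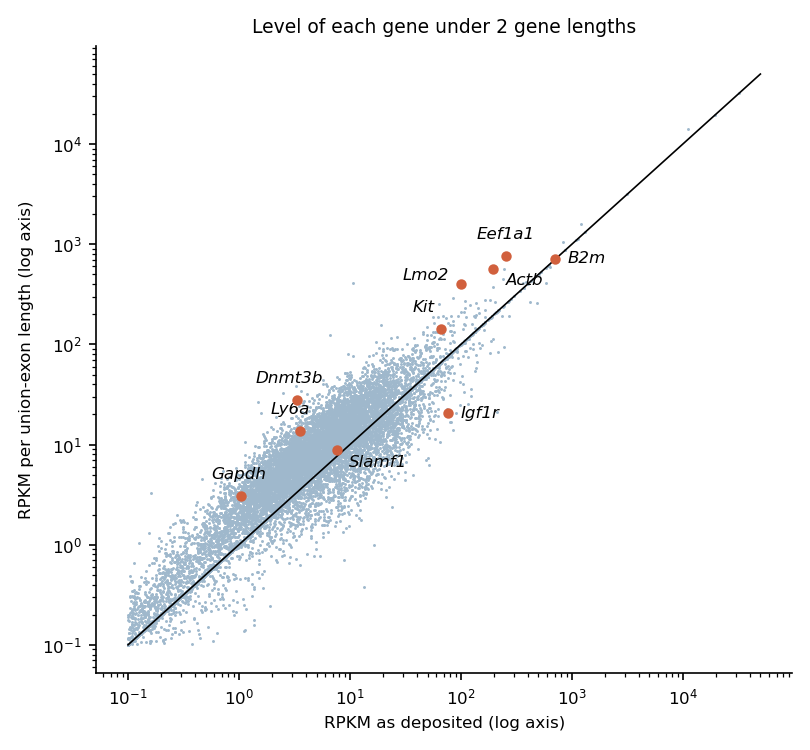
Level of each gene in RPKM as deposited (horizontal, log axis) against RPKM per union-exon length of GENCODE M21 (vertical, log axis), for genes at 0.1 RPKM or more on both; each point is a gene and the line marks equal values. Actb and Eef1a1 lie above the line, at 572 and 769 against 194 and 252 RPKM, Igf1r lies below it at 20.4 against 76.5, and B2m lies on it at 708.

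The range of levels ran from 32320 RPKM to values set by the authors' prior alone. A level of at least 1 RPKM was reached by 12655 genes (68.2% of the table), at least 10 RPKM by 3908 (21.1%) and at least 100 RPKM by 181 (0.976%). The median gene stood at 3.06 RPKM. The 9 genes at 1000 RPKM or more held 11.2%, 13.4% and 13.4% of the reads in replicates 1 to 3. The 172 genes from 100 to 1000 RPKM held 5.12% to 5.51%, and the 3727 genes from 10 to 100 RPKM held 45.0% to 46.5%. Of the 3572 matched genes of that class, 2878 were protein-coding. The 8747 genes from 1 to 10 RPKM held a further 34.4% to 35.5%. Below 1 RPKM lay 5414 genes with some reads, which together held 1.31% to 1.85% of the reads, and 477 genes (2.57%) had no read in any of the 3 libraries. That number was 597 without replicate 1, 1499 without replicate 2 and 793 without replicate 3.

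**Figure D2:**
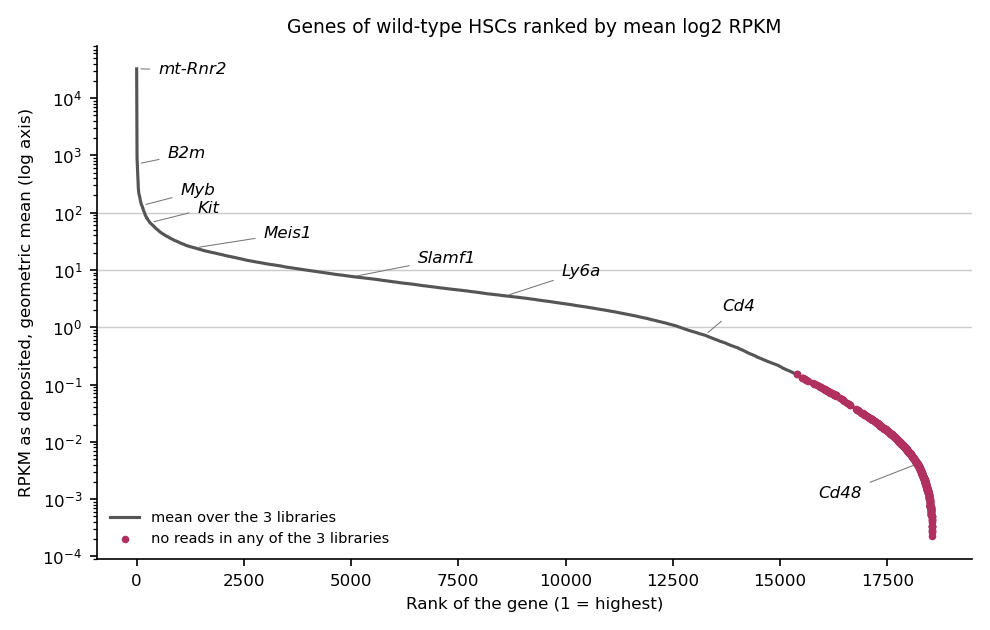
Level of each of the 18546 genes (vertical, geometric mean RPKM as deposited, log axis) against its rank (horizontal), with grey lines at 1, 10 and 100 RPKM and red points for the 477 genes with no read in the 3 wild-type libraries. Kit lies at rank 311, Slamf1 at rank 5048 and Ly6a at rank 8604, and the unread genes fall among read genes because their listed value depends on gene length.

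Structural RNAs filled the top of the ranking. The highest gene was mt-Rnr2, the large mitochondrial ribosomal RNA (chrM:1094-2675, mm10), at 27566, 33595 and 36456 RPKM, which was 4.55%, 5.25% and 5.75% of each library's reads. The small mitochondrial ribosomal RNA, mt-Rnr1, was ranked 5 at 2185, 3712 and 3842 RPKM. These stayed high although the labels state that ribosomal and mitochondrial RNA was removed before library preparation. Gm26917, annotated as a long noncoding RNA at chr17:39843013-39846341, stood at 9661, 12301 and 11510 RPKM. With Yam1 it held 5.09% to 6.21% of the reads, and which RNA these reads came from was not tested. Malat1, the abundant nuclear-speckle RNA (chr19:5795690-5802672), was at 1041, 1353 and 1216 RPKM, with overlapping values in Rpph1, the RNA of RNase P, at 1019, 1037 and 1244. Rn7sk, the RNA that restrains the elongation factor P-TEFb, was at 1050, 846 and 740 RPKM. Gm23935, a 57-base model annotated as a miRNA, was ranked 2 at 15525 to 23656 RPKM from 26993 to 30576 reads.

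Of the 181 genes at 100 RPKM or more, 168 were matched, and 76 of those were protein-coding. A further 69 were pseudogenes, which are copies of protein-coding genes, and 16 of them are named for ribosomal protein genes. Reads of a parent gene and of its near-identical copies cannot be assigned with certainty, so these levels are uncertain, as are those of the parents. Among genes named for ribosomal proteins, 80 protein-coding genes had a median of 17.1 RPKM and 172 pseudogenes a median of 15.4, and they took 0.829% to 0.944% and 0.404% to 0.481% of the reads. Rpl4 was the highest of the genes at 573, 555 and 622 RPKM, and Rpsa-ps10 the highest of the pseudogenes at 656, 595 and 629. Rpl32, Rpl8 and Rplp1 stood at 486, 421 and 406 RPKM, and at 261, 267 and 403 per union-exon length. The same doubt touches Gapdh, the glycolytic enzyme often used as a reference gene, which had 102, 531 and 655 reads and 0.415, 1.73 and 1.54 RPKM. The histone H1 genes Hist1h1e, at 286, 165 and 308 RPKM, and Hist1h1d, at 265, 152 and 238, also belong to a family of close copies, and their levels were 94.6 and 21.3 RPKM per union-exon length.

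Among protein-coding genes of the nuclear genome, B2m, the light chain of MHC class I (chr2:122147686-122153083), was the highest at 690, 717 and 719 RPKM (708 ± 15.9, SD, n = 3). Eef2, the factor that moves the ribosome along the message (chr10:81176631-81182498), came next at 674, 625 and 613 RPKM. Both held a narrow range, and the 2 ranges did not overlap on the deposited scale. Per union-exon length Eef1a1 moved to the first place, at 729 to 801 RPKM, and B2m, with a single transcript model, stayed at 690 to 719. Hsp90ab1, the constitutive cytosolic HSP90 chaperone, was at 252, 232 and 244 RPKM as deposited and at 570 per union-exon length.

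Other high protein-coding genes of the nuclear genome, outside translation, were of varied function. Serinc3, a multi-pass membrane protein (chr2:163623272-163645131), was at 335, 399 and 363 RPKM. Zfp36l2, an RNA-binding protein that promotes decay of its target messages (chr17:84183931-84187947), was at 257, 318 and 279 RPKM. Angpt1, the ligand of the Tie2 receptor (chr15:42424723-42676977), stood at 205, 276 and 235 RPKM, higher than its receptor gene Tek at 3.75, 6.69 and 7.61. Adgrg1, an adhesion G-protein-coupled receptor also called GPR56 (chr8:94974751-95014217), was at 189, 210 and 205 RPKM. No library value of Serinc3 or Angpt1 overlapped the other's, whereas the ranges of Zfp36l2 and Angpt1 overlapped. Per union-exon length Angpt1, at 194 RPKM, lay below Adgrg1, at 265. Further down came Fermt3, the kindlin that activates integrins in blood cells, at 182 ± 9.58 RPKM, Cd24a at 146 ± 11.1 and Spn, the sialoglycoprotein CD43, at 127 ± 7.84. Per union-exon length their order was reversed without overlap, with Spn at 160 RPKM, Cd24a at 102 and Fermt3 at 81.4. Car2, a carbonic anhydrase often listed with erythroid genes, was among the least variable of the group at 165, 161 and 164 RPKM.

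The sorting gate was checked against its own genes. Kit, the receptor for the Kit ligand (ENSMUSG00000005672, chr5:75574916-75656722), was at 67.2, 68.2 and 64.7 RPKM (66.7 ± 1.79, SD, n = 3), above 98.3% of the table. Slamf1, which encodes CD150 (chr1:171767127-171801184), was at 7.45, 11.3 and 5.26 RPKM (7.99 ± 3.05). Ly6a, which encodes Sca1 (chr15:74994877-74998031), was at 2.21, 3.96 and 4.96 RPKM (3.71 ± 1.39). All 3 positive markers were read in every library, with the order Kit, Slamf1, Ly6a on the deposited scale and no overlap between neighbours. Per union-exon length Kit stayed apart at 138 to 145 RPKM, whereas Ly6a, at 8.63 to 19.4, overlapped Slamf1 at 6.08 to 13.03.

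Cd48, which the gate excludes (ENSMUSG00000015355, chr1:171682009-171705258), had no read in any of the 3 libraries. A limit of 3 reads per library allows at most 0.0711, 0.0570 and 0.0412 RPKM, for counting error only. Reads of a library without molecular identifiers are not independent molecules. Il7r, the interleukin-7 receptor of lymphoid progenitors, also had none, with limits of 0.0467, 0.0375 and 0.0271 RPKM. Of 10 genes taken as usual lineage antigens and exclusion markers, 7 were analysed here, and none of the 7 reached 1 RPKM, against 68.2% of all genes. Cd4 was the highest at 0.770, 1.20 and 0.411 RPKM. Itgam, the myeloid integrin CD11b, varied most among those read in all libraries, with 0.0547, 1.05 and 3.41 RPKM from 29, 701 and 3141 reads. Klrb1c of NK cells had no read in replicate 1 and 0.838 and 0.820 RPKM in replicates 2 and 3, and Cd8a of T cells had 36 reads in replicate 1 and none in the other two. Without replicate 1, 1 of the 7 passed 1 RPKM, and per union-exon length Cd4 and Itgam did, at 1.18 and 3.09. In bulk RNA, fewer cells of a type and less RNA per cell cannot be told apart.

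The sequences just before the transcription start of genes from the top, middle and bottom of the ranking are shown to set their CpG content beside their levels. Each is the 250 bases before the start, from RefSeq on GRCm38.p6, written 5′ to 3′ on the strand of the gene, with every CG dinucleotide in capitals.
Eef2, chr10:81176381-81176630, plus strand: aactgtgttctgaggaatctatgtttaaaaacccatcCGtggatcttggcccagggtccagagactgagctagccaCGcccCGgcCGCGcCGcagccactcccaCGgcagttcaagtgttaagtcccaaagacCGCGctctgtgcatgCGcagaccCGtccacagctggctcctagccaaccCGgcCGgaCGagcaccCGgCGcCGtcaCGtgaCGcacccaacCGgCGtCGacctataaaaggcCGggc
Kit, chr5:75574737-75574986, plus strand: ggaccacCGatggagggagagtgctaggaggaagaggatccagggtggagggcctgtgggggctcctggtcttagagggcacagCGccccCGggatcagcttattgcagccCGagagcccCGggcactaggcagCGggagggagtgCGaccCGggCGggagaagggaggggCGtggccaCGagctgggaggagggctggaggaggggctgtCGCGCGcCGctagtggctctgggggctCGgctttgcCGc
Slamf1, chr1:171766882-171767131, plus strand: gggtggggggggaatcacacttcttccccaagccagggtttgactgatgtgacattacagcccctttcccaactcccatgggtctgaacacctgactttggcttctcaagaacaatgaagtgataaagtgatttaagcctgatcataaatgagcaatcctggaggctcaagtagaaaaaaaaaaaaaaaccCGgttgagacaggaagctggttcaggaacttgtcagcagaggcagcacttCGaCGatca
Cd48, chr1:171681742-171681991, plus strand: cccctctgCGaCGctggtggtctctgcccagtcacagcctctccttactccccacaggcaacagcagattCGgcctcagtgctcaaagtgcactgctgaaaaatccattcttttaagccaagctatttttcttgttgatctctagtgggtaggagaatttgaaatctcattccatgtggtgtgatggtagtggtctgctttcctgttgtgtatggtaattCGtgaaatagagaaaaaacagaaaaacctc
Mpo, chr11:87793534-87793783, plus strand: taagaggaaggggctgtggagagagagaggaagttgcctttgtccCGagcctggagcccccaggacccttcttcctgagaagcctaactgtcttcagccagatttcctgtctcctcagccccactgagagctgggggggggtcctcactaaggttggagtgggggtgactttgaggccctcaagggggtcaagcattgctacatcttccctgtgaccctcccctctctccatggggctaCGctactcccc
Eef2 and Kit, at 637 and 66.7 RPKM, have 23 and 17 CG dinucleotides in this window. Slamf1, at 7.61 RPKM, has 3, Cd48, with no reads, has 4, and Mpo, the myeloperoxidase gene with 0, 1 and 42 reads, has 2. Slamf1 was thus read in every library with a window as poor in CpG as that of Cd48. RefSeq lists a further start for Kit, which was not used for this sequence. The RefSeq starts used for Kit and Slamf1 lie inside the gene spans given above, so the ends of these windows enter those spans.

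Over all genes with a single RefSeq start, 8431 were matched to the table, and CpG content was lower in genes under 1 RPKM than in those above it. The median ratio of observed to expected CG dinucleotides, over 250 bases before to 50 bases after the start, was 0.801 in genes from 100 to 1000 RPKM, 0.833 from 10 to 100 and 0.781 from 1 to 10. It was 0.614 in read genes under 1 RPKM, 0.386 in genes without reads and 0.762 over all 8431 matched promoters. Over all 32851 promoters of the RefSeq table, which include genes with several starts, it was 0.384. A ratio of at least 0.6 was found in 81.3% of the 1887 promoters from 10 to 100 RPKM, 51.3% of the 2059 under 1 RPKM and 27.6% of the 156 without reads. The letters CCGGAAG, searched on both strands and part of the motif bound by ETS factors, occurred in 21.5% of the promoters from 10 to 100 RPKM and 21.2% from 1 to 10. They occurred in 10.7% under 1 RPKM, 7.69% without reads and 18.4% of all matched promoters, against 8.86% of all in the RefSeq table. TATAAA from 40 to 16 bases before the start, on the strand of the gene, was rare in every class, at 1.19% of the matched promoters and 1.99% of all. The CCGGAAG motif holds a CpG, so its share and the CpG content are not separate measures, and genes with several starts are outside these counts. Genes without reads were listed only through reads in at least 2 of the 9 libraries of other genotypes. Genes unread throughout the series are not in that class.

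Genes used to mark HSCs were nearly all expressed. Of 40 listed, 39 were analysed here, 38 reached 1 RPKM (97.4%, against 68.2% of all genes) and 19 reached 10 RPKM (21.1% of all genes). Their median was 9.90 RPKM, above 78.7% of the table. The list was chosen with earlier results of these data known, so its share at 1 RPKM is not an independent check. After Angpt1 came Mmrn1, a multimerin shared with platelets and endothelium, at 84.3, 74.4 and 79.4 RPKM, and Hlf, a PAR bZIP factor tied to HSC maintenance, at 47.1, 63.5 and 54.4. The values of Mmrn1 and Hlf did not overlap on the deposited scale, but per union-exon length Hlf, at 88.8 to 120 RPKM, overlapped Mmrn1, at 82.8 to 93.8.

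The markers used most in reporter mice and sorting schemes lay lower. Procr, the endothelial protein C receptor, was at 13.2, 18.3 and 15.1 RPKM, and Fgd5, an exchange factor for Cdc42, at 11.4, 15.2 and 11.2. Mecom, the Evi1 locus, had 10.5, 11.3 and 8.20 RPKM, and 37.1 ± 5.92 per union-exon length. Vwf, the von Willebrand factor found in platelet-biased HSCs, was at 3.53, 4.71 and 5.11 RPKM. Hoxb5, a homeobox gene that marks long-term HSCs, was low at 0.514, 1.35 and 2.39 RPKM with 48, 157 and 386 reads. Cldn10 was the exception in the list, with 2 reads in replicate 1 and none in the others. Ndn, the imprinted growth suppressor necdin, had 0.126 RPKM in replicate 1 against 11.7 and 10.3 in replicates 2 and 3, so its level of 2.47 describes none of the 3 libraries.

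HSC transcription factors varied least between libraries among the lists described. This list too was chosen with earlier results of these data known. All 35 members reached 1 RPKM (68.2% of all genes did) and 28 reached 10 RPKM (21.1% of all genes). Their median of 17.8 RPKM lay above 88.9% of the table. Their median SD over libraries was 0.14 on the log2 scale, against 0.26 over all genes from 10 to 30 RPKM, the range in which the median of the list lies. Myb, a factor of progenitor growth, was the highest at 141, 136 and 123 RPKM, followed by the adaptor Lmo2 at 96.2, 122 and 84.6. Per union-exon length the order turned, with Lmo2 at 339 to 488 RPKM and Myb at 124 to 142. Sox4 at 63.4, 72.8 and 60.2 RPKM and Zfpm1, the GATA cofactor FOG1, at 65.5, 69.1 and 54.8 overlapped, while per union-exon length Zfpm1 was at 91.9 RPKM and Sox4 at 65.3.

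The factors that form the core HSC complex spanned a wide range. Fli1 and Lyl1 stood at 65.1, 52.3 and 51.5 RPKM and at 42.5, 39.8 and 47.0. Gata2 was at 47.3, 47.8 and 43.4, Meis1 at 23.3, 25.5 and 24.1, Erg at 18.4, 21.8 and 19.1, Tal1 at 17.0, 19.2 and 20.9 and Runx1 at 12.4, 15.5 and 13.5. Gata2 lay above Meis1, and Erg and Tal1 overlapped. The length used matters here too, since Erg rose to 103 RPKM and Meis1 to 72.5 per union-exon length while Gata2 stood at 54.5. Prdm16, at 2.30, 2.67 and 2.22 RPKM, and Gfi1, a repressor that restrains HSC cycling, at 0.746, 2.16 and 1.03, were among the lowest members, with 16.2 and 3.83 RPKM per union-exon length.

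**Figure D3:**
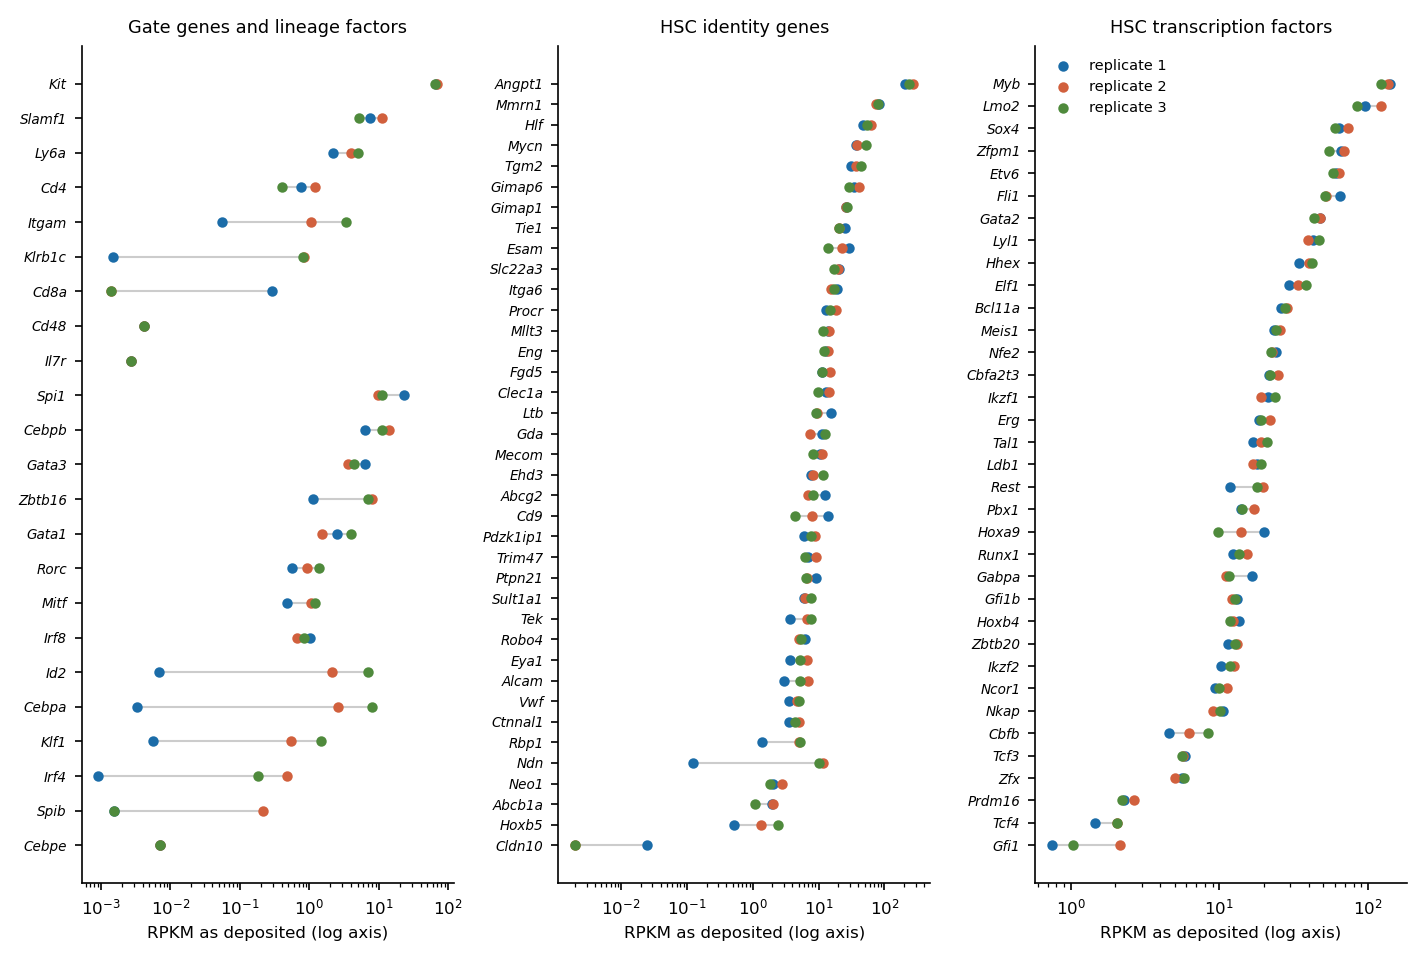
RPKM as deposited (horizontal, log axis) of most analysed gate genes and lineage factors (left), HSC identity genes (middle) and HSC transcription factors (right) in each of the 3 wild-type libraries; each point is a library and a grey line joins the 3 values of a gene, with unread libraries at their listed value. HSC transcription factors keep within a narrow span, as Gata2 does at 43.4 to 47.8 RPKM, whereas Cebpa, Id2 and Ndn drop in replicate 1.

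Factors that drive single lineages were mostly low. Of 25 listed, 14 were analysed here and 5 of them reached 1 RPKM (35.7%, against 68.2% of all genes). Spi1, the PU.1 factor of myeloid and lymphoid cells, was the highest at 22.9, 9.81 and 11.1 RPKM, then Cebpb at 6.32, 14.0 and 11.1 and Gata3 at 6.37, 3.62 and 4.34. Gata1, the erythroid and megakaryocyte factor, was at 2.47, 1.54 and 3.94 RPKM. Cebpa, the granulocyte factor, had no read in replicate 1 and 2.59 and 8.01 RPKM in replicates 2 and 3, and Id2 followed the same pattern at 2.09 and 7.07. Klf1 of red cells had none, 0.554 and 1.46 RPKM. Cebpe, which acts late in granulocytes, had no read in any library, and Spib was read in replicate 2 alone. Without replicate 1, 9 of the 14 reached 1 RPKM, and 8 did by the median of the 3 libraries or per union-exon length.

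Receptors for the factors that keep or activate HSCs were read about as often as other genes. Of 51 listed, 48 were analysed here and 35 reached 1 RPKM (72.9%), close to the 68.2% of all genes. Igf1r and Kit were the highest as deposited, at 83.6, 69.6 and 76.9 and at 67.2, 68.2 and 64.7 RPKM, but per union-exon length Kit was at 142 and Igf1r at 20.4. Notch2 was at 46.7, 44.1 and 43.1 RPKM and Notch1 at 9.34, 7.19 and 5.78, while Notch4 and Notch3 stayed under 1. Csf3r and Csf2ra, receptors of granulocyte factors, stood at 13.6 ± 0.950 and 20.5 ± 6.94 RPKM. Flt3, the receptor that rises in lymphoid-primed progenitors, was at 8.54, 11.4 and 4.65 RPKM. Both interferon receptor pairs were read, with Ifngr1 at 18.9, 18.3 and 19.2 RPKM and Ifnar1 at 12.4, 10.7 and 8.30. Epor, the erythropoietin receptor, was at 5.19, 1.47 and 1.24 RPKM, and Csf1r, the macrophage receptor, at 0.799 RPKM in replicate 1 and under 0.01 in the others. The 2 lowest members were Flt1 and Il7r.

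Genes of niche contact were read at a share not far from that of all genes. Of 34 adhesion and niche receptors, 32 were analysed here, 25 reached 1 RPKM (78.1%, against 68.2% of all genes) and 14 reached 10 RPKM (21.1% of all genes). After Cd24a came Cd47, the signal that spares cells from phagocytosis, at 34.4, 37.7 and 37.7 RPKM, and the integrin subunit Itgb1 at 24.3, 36.4 and 31.4. Cxcr4, the receptor of the niche chemokine, was at 20.8, 13.4 and 18.9 RPKM. Cd34, which is absent from the surface of most adult mouse HSCs but present on progenitors, was at 23.5, 19.03 and 24.4 RPKM at the RNA level. Ptprc, the pan-leukocyte CD45, was at 12.6, 15.3 and 15.4. Vcam1 had no read in replicate 1 and 0.245 and 0.324 RPKM in the others, and Cdh2, N-cadherin, had no read in any library.

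Genes of quiescence and of division were both read. Of 26 analysed genes of the quiescence list, 25 reached 1 RPKM (96.2%, against 68.2% of all genes), and the list's median was 9.32 RPKM. Txnip, a brake on glucose uptake, was the highest at 110, 98.7 and 122 RPKM, and 272 per union-exon length. Ccnd2, a D cyclin, followed at 57.2, 47.1 and 41.4 and Foxo3 at 27.2, 29.2 and 29.6. The inhibitor Cdkn1c (p57), a hallmark of resting HSCs, was at 5.72, 9.91 and 6.54 RPKM and Cdkn1b (p27) at 8.68, 12.6 and 17.5, and their ranges overlapped. Cdkn1a (p21) was far lower, with no read in replicate 1 and 0.926 and 0.365 RPKM in the others. The D cyclins ranked Ccnd2, Ccnd1 at 10.5, 14.7 and 9.89, and Ccnd3 at 5.99, 5.91 and 6.47 RPKM, though Ccnd3 passed Ccnd1 per union-exon length.

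Replication genes had a median of 7.09 RPKM, with 26 of 27 at 1 RPKM or more (96.3%, against 68.2% of all genes). The helicase subunit Mcm2 was the highest, at 46.5, 48.6 and 61.5 RPKM, and overlapped Mcm4 at 51.4, 40.3 and 50.5, below which it lay per union-exon length, at 22.5 to 29.8. Of 26 genes of G2 and mitosis, 24 reached 1 RPKM (92.3%, against 68.2% of all genes), with a median of 5.97. Mki67, a protein that coats mitotic chromosomes, was an extreme of that list at 84.6, 54.9 and 91.6 RPKM, and Top2a was at 21.8, 21.4 and 25.3. The mitotic cyclin Ccnb1, at 1.3, 0.38 and 0.294 RPKM, and Ube2c, at 0.0186, 1.16 and 0.168, were the lowest. Only 2 of the 26 genes were highest in replicate 2, Aurka and Ube2c, against 29.3% of all genes at 1 RPKM or more. These values do not give a share of dividing cells.

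The paralogues of a family were ordered by level, with neighbours called apart only where no library values overlapped. Among 113 neighbouring pairs in 35 families, 61 were apart on the deposited scale, and 43 of those kept that order without overlap per union-exon length. For the enzymes that oxidise methylated cytosine, Tet3 was at 11.1, 11.2 and 11.4 RPKM, Tet1 at 4.36, 7.51 and 5.29 and Tet2 at 4.93, 4.94 and 4.98. Tet3 was thus apart from Tet1 as deposited, but the libraries overlapped per union-exon length, where the levels were 13.3, 11.6 and 10.4. The maintenance methyltransferase Dnmt1 was at 29.2, 22.0 and 27.9 RPKM, above Dnmt3a at 7.56, 7.43 and 7.20 and Dnmt3b at 2.82, 3.71 and 3.61. The order of Dnmt3a and Dnmt3b turned per union-exon length, at 18.6 and 27.9 RPKM. Of 15 analysed DNA methylation genes, all reached 1 RPKM, against 68.2% of all genes. For the Polycomb methyltransferases, Ezh1 at 9.14, 8.37 and 7.49 RPKM overlapped Ezh2 at 5.19, 5.33 and 7.72. Kmt2a was the highest of 32 Polycomb and trithorax genes at 29.4, 27.9 and 27.1, and Asxl3 the lowest, read in replicate 2 alone.

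In the Ras pathway, Nras was at 5.66, 6.13 and 4.95 RPKM, above Hras at 2.38, 1.15 and 1.69 with no overlap under either length. Araf, at 7.58, 8.19 and 9.40 RPKM, overlapped Braf, at 2.76, 6.61 and 7.91, and lay above it per union-exon length. Akt1, at 29.8, 23.2 and 27.6 RPKM, lay above Akt2 at 3.26, 3.52 and 3.49, an order that held under both lengths. Jak1 was the highest Janus kinase at 53.2, 48.1 and 56.1 RPKM. Jak2, which serves several cytokine receptors, was at 15.7, 19.2 and 18.9. Stat6, at 30.9, 29.6 and 26.4 RPKM, and Stat5b, at 19.3, 17.1 and 16.2, led the STAT factors. Among the SOCS inhibitors, Socs1 was read in replicate 2 alone and Socs3 had no read in replicate 1. Mcl1 was the highest survival member of the BCL2 family at 50.7, 100 and 72.2 RPKM, above Bcl2 at 12.0, 12.2 and 13.7. Mycn, at 37.7, 38.1 and 52.1 RPKM, was above Myc at 7.24, 5.32 and 8.66 under both lengths.

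The Hox clusters differed in which members were read. In the Hoxa cluster 8 of 11 genes were analysed here and 7 reached 1 RPKM (87.5%, against 68.2% of all genes). Hoxa6, at 14.2, 33.1 and 30.1 RPKM, and Hoxa7, at 21.2, 12.99 and 13.1, led the cluster. Hoxa5, at 11.4, 15.7 and 15.3, and Hoxa9, at 19.96, 13.9 and 9.76, came next, and these ranges overlapped. Hoxa4 and Hoxa3 were at 12.1, 4.96 and 8.52 and at 10.1, 7.62 and 5.06, Hoxa10 at 1.34, 2.2 and 2.27, and Hoxa2 had no read in replicate 1. In the Hoxb cluster 3 of 6 analysed genes reached 1 RPKM (50%, against 68.2% of all genes), and 5 did without replicate 1. Hoxb4, an inducer of HSC self-renewal when overexpressed, was at 13.7, 12.4 and 11.8 RPKM and Hoxb3 at 6.48, 4.99 and 5.30, and neither overlapped the other. Hoxb6 was at 0.0331, 1.74 and 3.32 RPKM, and Hoxb2 and Hoxb8 lay under 1 as a level. None of 5 analysed Hoxc genes reached 1 RPKM, against 68.2% of all genes. Hoxc6, at 0.707 and 0.752 RPKM in replicates 2 and 3 with no read in replicate 1, was the highest, and Hoxc8 was at 1.15 RPKM in replicate 1 and under 0.02 in both others. No Hoxd gene was analysed here.

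Among lineage programmes the megakaryocyte list was the most expressed, with 14 of 23 analysed genes at 1 RPKM or more (60.9%, against 68.2% of all genes). Besides Mmrn1, the thrombin receptor F2r was at 30.03, 27.7 and 17.9 RPKM and the integrin Itga2b at 13, 9.90 and 10.4. Pf4, the platelet factor 4 that fills alpha granules, was at 1.84, 2.57 and 2.71 RPKM. Gp1bb and Alox12 were read in replicate 2 alone. Thbs1 had 0.00901, 1.72 and 43.0 RPKM, a spread larger than any other member of the list.

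Of 25 listed erythroid genes, 19 were analysed here and 8 reached 1 RPKM (42.1%, against 68.2% of all genes). Car2 led, followed by the globin gene Hbb-bt at 11.1, 11.2 and 9.48 RPKM and the water channel gene Aqp1 at 14.5, 6.99 and 10.9. Hba-a1 and Hba-a2, which are near-identical and so uncertain, stayed at or under 1.77 RPKM in each library. Slc4a1 and Ermap, genes of the red cell membrane, had no read. Of 34 listed granulocyte and monocyte genes, 19 were analysed here and 5 reached 1 RPKM (26.3%, against 68.2% of all genes). Lyz2, lysozyme of myeloid cells, stood out at 95.4, 95.4 and 81.9 RPKM, with Csf3r and Prtn3, the latter at 7.40, 9.12 and 10.6. Elane, Ngp, Cebpe and Mmp9 had no read, and Mpo had 0, 1 and 42 reads. The summed RPKM of this list was 134, 126 and 124 in replicates 1 to 3, most of it Lyz2, and the part of mature cells in it was not tested.

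Lymphoid and mast cell genes were low. Of 21 listed B-lineage genes, 10 were analysed here. Cd79b, at 4.78, 3.97 and 5.97 RPKM, was the only one of them to reach 1 RPKM (10%, against 68.2% of all genes). Without replicate 2, 2 of them did. Vpreb1, Jchain and Dntt were unread. Of 25 listed T and NK genes, 6 were analysed here and 2 reached 1 RPKM (33.3%, against 68.2% of all genes). Without replicate 2, Lat alone did. Lat, an adaptor shared by T cells, mast cells and platelets, was at 28.1, 25.2 and 23.2 RPKM, and Lck at 1.48, 1.19 and 0.568. Of 17 listed mast cell, basophil and eosinophil genes, 4 were analysed here and none reached 1 RPKM, against 68.2% of all genes. Prg2 and Cpa3 had no read. Of 21 listed endothelial genes, 14 were analysed here and 8 reached 1 RPKM (57.1%, against 68.2% of all genes). Tie1, at 25.6, 20.5 and 20.4 RPKM, and Esam, at 28.7, 22.5 and 13.9, led the list. Kdr, a receptor of vessel endothelium, was at 0.233, 0.896 and 0.784 RPKM, and Flt1 and Stab1 were near or at 0. Of 21 listed stromal genes, 8 were analysed here and only Angpt1 reached 1 RPKM (12.5%, against 68.2% of all genes). Without replicate 2, 2 genes did. Col1a2 was at 1.24, 0.362 and 1.23 RPKM in the libraries, and Postn was unread.

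Genes of unrelated tissues served as a reference for low values. Of 24 listed neuronal genes, 8 were analysed here and 2 reached 1 RPKM. These numbers were 24, 3 and 1 for liver and 25, 7 and 2 for muscle. They were 25, 7 and 2 for epithelium and 25, 5 and 1 for the germline. Over all genes, 68.2% reached 1 RPKM. Analysed members had passed the table's own gene filter, so a share of them is not a share of the list. Some single members were well above that level. Krt18, a keratin of simple epithelia, was at 66.4, 56.1 and 64.8 RPKM, while its usual partner Krt8 had no read in replicate 1 and 0.915 and 1.13 in the others. Nefh, a neurofilament gene, was at 12.1, 10.5 and 6.19 RPKM, and Camk2a at 3.37, 5.82 and 4.94. Cell types behind these values were not tested.

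**Figure D4:**
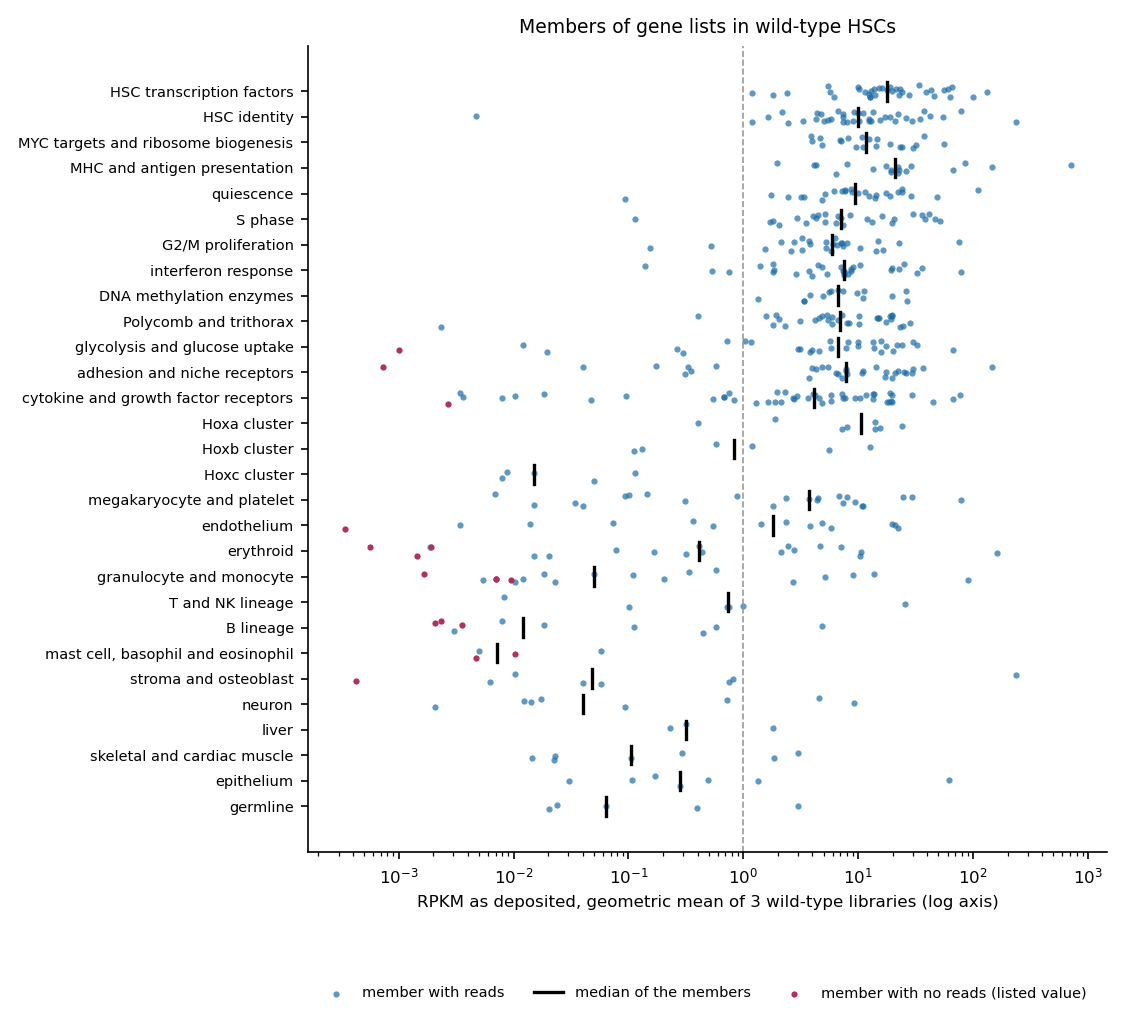
Level of each analysed member of 29 gene lists (horizontal, geometric mean RPKM as deposited over 3 wild-type libraries, log axis); blue points have reads, red points have none in any of the 3 libraries and sit at a listed value, black bars mark the median of the members and the dashed line marks 1 RPKM. HSC transcription factors (median 17.8 RPKM) lie to the right of the line, and granulocyte and monocyte genes (median 0.0505 RPKM) mostly to the left, with Lyz2 as an exception.

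All 18 MHC and antigen presentation genes reached 1 RPKM, against 68.2% of all genes. After B2m came H2-D1 at 147, 147 and 145 RPKM and H2-K1 at 93.1, 85.7 and 77.3. Class II genes were also read, with H2-Eb1 at 30.5, 17.1 and 20.9 RPKM, Cd74 at 3.06, 4.28 and 6.19 and their activator Ciita at 2.65, 1.68 and 1.74. Of 30 interferon response genes, 27 reached 1 RPKM (90.0%, against 68.2% of all genes). They were led by Ifitm2 at 116, 74.2 and 55.4 and Ifitm3 at 43.9, 22.9 and 47.3, members of a family of close copies. Isg15 had no read in replicate 1 and 2.82 and 4.84 RPKM in the others, as had Ifit3 at 0.579 and 0.950. Of 30 analysed genes of glycolysis and glucose uptake, 24 reached 1 RPKM (80.0%, against 68.2% of all genes). Pkm was the highest at 87.7, 55.1 and 60.5, and Slc2a2, a liver transporter, was unread. All 20 MYC target and ribosome biogenesis genes reached 1 RPKM (68.2% of all genes did), with nucleolin, Ncl, at 48.8, 58.3 and 60.8.

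Among imprinted genes, 10 of 22 analysed reached 1 RPKM (45.5%), under the 68.2% of all genes. Kcnq1ot1, the noncoding RNA of the Cdkn1c domain, was at 13.8, 15.5 and 16.3 RPKM, Impact at 8.76, 18.9 and 13 and Igf2r at 13.9, 10.4 and 10.7. Meg3, a maternally expressed noncoding RNA, was at 1.17, 2.10 and 7.49 RPKM and H19 at 0.702, 1.09 and 0.284. Dlk1 and Plagl1 were read in replicate 2 alone, and Igf2 was at 0.319 RPKM in replicate 2 and under 0.01 in the others. The growth factor Igf2 was thus near 0 while its clearance receptor Igf2r was above 10 RPKM in each library.

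The unread genes were only those read elsewhere in the series, since each listed gene had at least 1 CPM (reads scaled to library size, without gene length) in at least 2 of the 12 libraries. Of the 477, 425 were matched, and 210 of those were protein-coding, 48 antisense, 33 processed pseudogenes, 30 lincRNAs and 17 miRNA genes. Their place in the ranking has no meaning of its own. Without reads, the listed value follows from gene length, from 0.000229 to 0.1497 RPKM, and 2687 genes with reads lie below the highest of these. Beside Cd48, Il7r, Elane and Dntt, the unread included Id1, a target of BMP signalling, and Pparg, the adipocyte receptor. These last 2 were chosen after their values were seen. Sensory and secreted families gave few genes to the ranking. Of 1403 annotated symbols beginning with Olfr, the odorant receptors, 13 were analysed here and none reached 1 RPKM, with Olfr658 the highest at 0.925. Likewise 2 of 236 Vmn2r and 2 of 40 Tas2r symbols were analysed and none reached 1 RPKM. None of the Vmn1r, Krtap, Defb and Mup symbols was analysed here.

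Low levels were also the least even between libraries. In read genes under 1 RPKM the median SD of log2 RPKM was 4.11 and 69.7% had a library at 0, whereas the median SD was 0.57 from 1 to 3 RPKM, 0.36 from 3 to 10, 0.26 from 10 to 30 and 0.19 at 100 or more. Because a single 0 pulls the mean of logs down, 972 genes under 1 RPKM by their level reached 1 RPKM in 2 of the 3 libraries, and 596 of those had no read in replicate 1. Cebpa, Id2 and Isg15 are among them. By the median of the 3 libraries, 13530 genes reached 1 RPKM.

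The 15 most variable genes at 1 RPKM or more were all lowest in replicate 1, and 13 of them had no read there. Tfb1m, a mitochondrial transcription factor, had 0, 385 and 1072 reads, Cyba, the p22phox subunit of NADPH oxidase, had 0, 365 and 681, and Ndufa4, a respiratory chain subunit, had 0, 83 and 463. Xist and Btg2, an antiproliferative early-response gene at 0.0214, 32.2 and 7.62 RPKM, were the 2 that had reads there. The steadiest genes at 10 RPKM or more were Arpc2, a subunit of the actin-branching Arp2/3 complex, at 66.1, 66.5 and 66.4 RPKM, Rps6ka5 at 14.8, 14.96 and 14.9 and Med13l at 12.4, 12.5 and 12.4. H2-D1 was also among the 10 steadiest, whose SDs ran from 0.0045 to 0.012 on the log2 scale.

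Stress and immediate early factors moved together between libraries. These are genes switched on within minutes of a stimulus, and of 25 listed 24 were highest in replicate 2, against 29.3% of all genes at 1 RPKM or more. Fos was at 24.2, 148 and 50.7 RPKM, Jun at 34.2, 154 and 86.6, Egr1 at 12.9, 46.8 and 11.5 and Nr4a1 at 5.78, 47.1 and 0.986. Myc was the exception, at 5.32 RPKM in replicate 2. The summed RPKM of the list was 490, 1268 and 671 in replicates 1 to 3. Over its 19 genes at 1 RPKM or more, the median log2 RPKM relative to each gene's own mean was -0.61, 0.999 and -0.04. For such genes the level is thus an average over libraries that differed several-fold. The time from marrow to lysis is not given in the labels, and its part was not tested.

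Mitochondrially encoded genes were lowest in replicate 1. The labels state that mitochondrial RNA was removed before library preparation, so these values are of RNA left after removal. Whether removal differed between libraries was not tested. All 15 genes reached 1 RPKM (68.2% of all genes did) and 10 reached 100 RPKM (0.976% of all genes). None was highest in replicate 1, with a median relative log2 RPKM of -0.68 there against 0.25 and 0.38 in replicates 2 and 3. The cytochrome oxidase subunit mt-Co1 was at 884, 1326 and 1254 RPKM and mt-Nd1 at 58.7, 154 and 149. Genes of G2 and mitosis had medians of 0.16, -0.42 and 0.16 in the 3 libraries, and HSC transcription factors -0.05, 0.06 and -0.03. Over all genes at 1 RPKM or more the medians were -0.01, 0.02 and 0.03, so these shifts are relative to the typical gene of each library. The deposited values are scaled between libraries, so an overall median near 0 is no separate check.

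**Figure D5:**
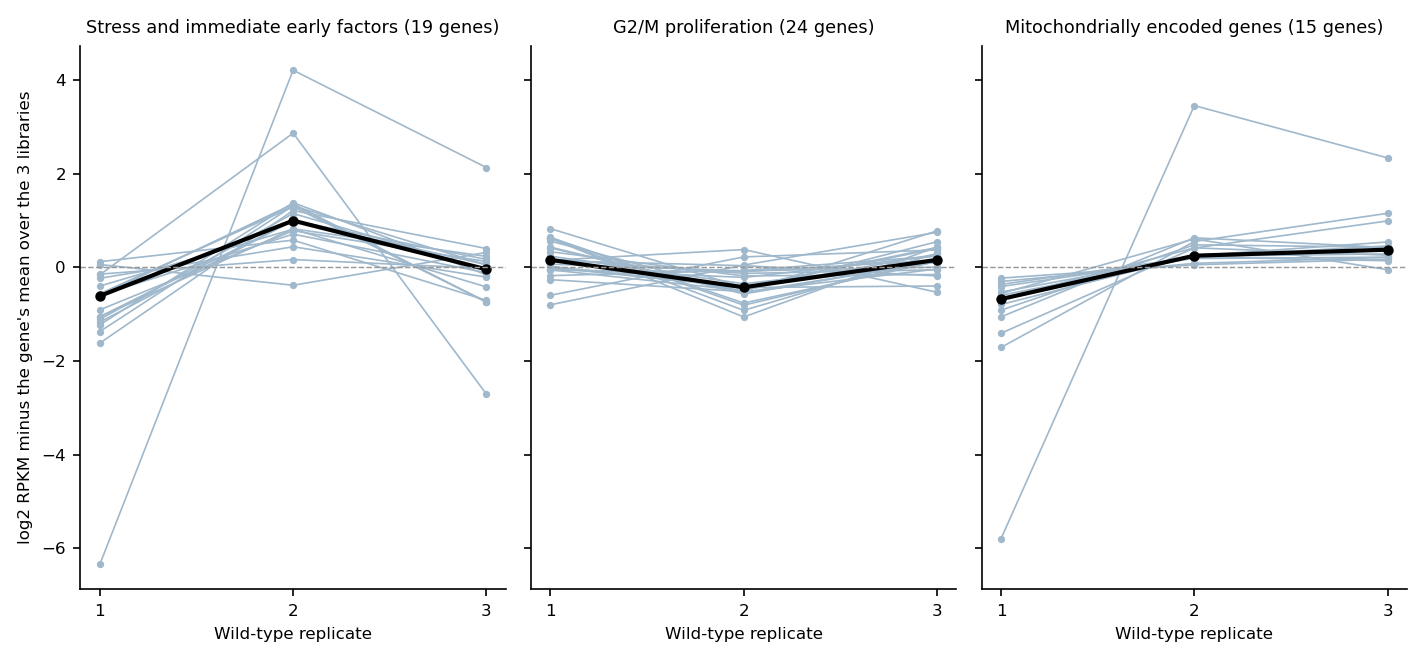
log2 RPKM minus the gene's own mean over the 3 wild-type libraries (vertical) by replicate (horizontal), for stress and immediate early factors (19 genes), genes of G2 and mitosis (24 genes) and mitochondrially encoded genes (15 genes) at 1 RPKM or more; each thin line is a gene and the black line is the median. Immediate early factors peak in replicate 2 with a median of 0.999, where genes of G2 and mitosis are lowest at -0.42, and mitochondrially encoded genes are lowest in replicate 1 at -0.68.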

How the data were processed

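RNA-seq was measured in 12 libraries, of which the 3 of the WT group were analysed. Per the labels' protocols, ribosomal and mitochondrial RNA was removed and libraries were made with a stranded kit. The submitters' processing notes name CASAVA 1.8.2, TopHat2, edgeR and mm10, with no role or order, and whether counting used strand is not given in the sources used here. The authors deposited log2 RPKM per gene symbol, no read counts, so the deposited values are of an other unit.

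The deposited values fit whole reads with a prior of 0.25 reads for every gene (tolerance 0.001 reads). From this fit, made over all 12 libraries, the read counts and gene lengths used here were recovered. The recovery was tested on simulated data. Genes were ranked by the mean of log2 RPKM over the 3 libraries, and described at 1, 10, 100 and 1000 RPKM. No test was run, because there is a single group and no contrast. Gene places, biotypes and union-exon lengths came from GENCODE M21, in which 93.1% of symbols matched a single gene, and promoter sequences from RefSeq GRCm38.p6. The annotation release used by the authors is not given in the sources used here, so union-exon values mix releases.

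The members and the 38 gene lists and 35 families were chosen with earlier results of these data known. The lists hold 832 genes, of which 604 were analysed here. The rule for names took the 30 highest genes and the 15 highest protein-coding nuclear genes. It also took the 3 highest and 2 lowest members of each list, all members of the gate lists, Hox clusters and families, and the 15 most variable and 10 steadiest genes. A few genes that the rule names are not reported here. The text gives the informative ones, and other list members and genes named outside it, such as Spn, Id1 and Pparg, were chosen after their values were seen. Alternatives were the arithmetic mean, log2(RPKM + 0.5), TPM rescaling, median-centred libraries, quantile normalization, other thresholds and leaving out each replicate. The union-exon length and the median of the libraries were added after seeing the data. Analyses used Python 3.11.15, NumPy 2.4.6 and pandas 2.3.3.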

Additional observations from a re-analysis of the deposited data

How the results depend on the processing

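No paired analysis was possible because a single group was described. Of the counts at 1 RPKM or more (12655 genes), every alternative stayed within 1.5 times, from 10891 genes at a threshold of 2 RPKM to 14711 under TPM rescaling, and leaving out a replicate gave 12537 to 13605. The count at 100 RPKM or more (181 genes) was 179 to 183 with a replicate left out, 492 at a threshold of 50 RPKM and 1271 under TPM rescaling, which multiplies every level. Among matched genes alone it was 168 as deposited and 201 per union-exon length. The unread genes (477) numbered 597 to 1499 with a replicate left out, the highest without replicate 2, the library with the fewest genes at 0. Without replicate 3 they numbered 793. The 10 highest genes held 12.7% of the reads, 12.3% to 13.4% with a replicate left out, 30.2% of summed RPKM, and 7.80% once mitochondrially encoded and small noncoding RNA genes were left out. The median level of 362 named genes was 7.38 RPKM, 6.74 to 9.98 with a replicate left out, 29.3 under TPM rescaling and 10.7 per union-exon length. List members at 1 RPKM or more (453) stayed within 1.5 times in every alternative run, 418 to 476.

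Depth limits the low end: 3 reads in a gene of 1 kb are 0.150, 0.120 and 0.0868 RPKM in replicates 1, 2 and 3. Without replicate 1, 3 lists moved by over 1.5 times, which were the excluded surface markers, the lineage transcription factors and the Hoxb cluster. Per union-exon length the excluded surface markers, lineage transcription factors and stromal genes did so.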
